A study of Rattus norvegicus with 84 samples.

Results

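Protocadherins are calcium-dependent adhesion molecules of the cadherin superfamily, and 41 of their genes were measured in 3 subregions of the rat hippocampus at 2 ages. The members are all genes whose symbol begins with Pcdh: 41 in each of the CA1, CA3 and dentate gyrus (DG) tables, the same 41 in all 3, of the 15109 genes that those tables share. They comprise 30 genes of the clustered families (2 alpha, 16 beta and 12 gamma) and 11 other, non-clustered genes. The rats were male F344, an inbred strain, and no treatment is named in the labels. At 5 months there were 12 young rats, and at 12 months 16 middle-aged rats. Each rat gave 1 library of polyA RNA per subregion, from a single hemisphere, 84 libraries in all. Values are counts that the authors normalized within each subregion, here called normalized counts. They are not corrected for gene length, so they compare a gene between samples and do not rank genes against each other. All 41 members passed the filter on low values (10 or more in 12 or more of the 28 libraries) in every subregion.

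In mammals the alpha, beta and gamma genes lie side by side, and a neuron switches on a small, partly random set of their promoters, which gives it a surface identity that its own branches recognise. Each alpha or gamma transcript joins 1 variable first exon, chosen by its promoter, to constant exons shared by the family, whereas each beta gene is a separate coding exon. Promoter choice depends on the DNA-binding protein CTCF and on the ring-shaped cohesin complex, which loop a promoter to distant enhancers. The non-clustered genes are scattered over the genome; the delta1 group (Pcdh1, Pcdh7 and Pcdh9 here) and the delta2 group (Pcdh8, Pcdh10, Pcdh17, Pcdh18 and Pcdh19) act in axon growth, cell sorting and synapse turnover.

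The promoters of 6 beta genes are shown because their levels differ between subregions in different ways. Pcdhb3 and Pcdhb4 were higher in CA1 than in the DG in every rat. Pcdhb9 was nearly level between these 2 subregions, though it was higher in the DG than in CA3 in 26 rats. Pcdhb19, Pcdhb20 and Pcdhb21 were higher in the DG than in CA1 in 28, 25 and 28 of 28 rats. Other beta genes, not shown here, also leaned to the DG, such as Pcdhb7, which was above CA1 in 24 rats. The stretches of 88 bases come from RefSeq (build GRCr8, plus strand, which is not the build of the count tables), are written 5′ to 3′, and lie before the annotated start of each gene. Capitals mark the element TGGCGCTG, whose inner letters CGCT are the core of the conserved sequence element known from clustered promoters.
Pcdhb3 (chr18:29285566-29285653): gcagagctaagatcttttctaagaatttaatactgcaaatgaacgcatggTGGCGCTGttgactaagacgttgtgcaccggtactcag
Pcdhb4 (chr18:29292173-29292260): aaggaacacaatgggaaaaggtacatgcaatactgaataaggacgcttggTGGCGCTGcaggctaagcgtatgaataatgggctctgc
Pcdhb9 (chr18:29379210-29379297): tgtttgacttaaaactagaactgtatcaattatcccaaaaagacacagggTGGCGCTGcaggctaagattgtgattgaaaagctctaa
Pcdhb19 (chr18:29478726-29478813): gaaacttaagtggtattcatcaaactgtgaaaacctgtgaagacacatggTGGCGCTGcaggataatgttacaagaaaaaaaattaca
Pcdhb20 (chr18:29485772-29485859): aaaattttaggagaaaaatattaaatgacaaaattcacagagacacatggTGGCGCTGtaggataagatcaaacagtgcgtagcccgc
Pcdhb21 (chr18:29492111-29492198): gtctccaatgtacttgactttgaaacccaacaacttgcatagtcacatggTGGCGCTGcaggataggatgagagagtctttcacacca

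RefSeq held promoters (250 bases before to 50 after the start) for 32 of the 41 members. The element TGGCGCTG stood on the gene's own strand in 14 of 14 beta promoters, in 0 of 7 gamma, 0 of 1 alpha and 0 of 10 non-clustered promoters. No member promoter held it on the other strand. Only this exact stretch of 8 bases was searched. Its core alone and variant forms were not, so the gamma and alpha promoters are not shown to lack the conserved element. Of all 27457 promoters of the same length, 0.911% held it on the same strand and 1.65% on either strand. In the beta genes its distance to the annotated start ran from 44 to 227 bases. The letters CACATGG directly before the element, which share no base with it, were found in Pcdhb19, Pcdhb20 and Pcdhb21 and in none of the other 11 beta promoters. Of all 27457 promoters, 3 held both together, which are these. Higher levels in the DG were not limited to these 3 genes. Pcdhb7 and Pcdhb6, without these letters, had median log2 differences of 0.48 and 0.39 for the DG against CA1. Pcdhb20, with them, had 0.27. These letters were chosen after the promoters and the levels had been seen, and 2 of 16 beta genes (Pcdhb11 and Pcdhb22) had no promoter entry, so they describe the sequences only.

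RefSeq also bears on which reads a symbol can hold. Of the 41 symbols, 36 are RefSeq symbols, among them all 16 beta genes but 8 of 12 gamma and 1 of 2 alpha genes. Of 15 RefSeq gamma genes 12 end at the same base, where the shared exons lie, while the 22 beta genes have 22 distinct ends. Reads from the shared exons cannot be given to 1 gamma or alpha gene by position alone, and how the authors counted them is not given in the sources used here. Several deposited symbols are older names of another gene: Pcdha6 of Pcdha4, Pcdhgb4 of Pcdhga7, Pcdhgb5 of Pcdhga8 and Pcdhgb8, Pcdhgb7 of Pcdhga10, Pcdhb2 of Pcdhb12 and Pcdhb14 of Pcdhb20. Values of the alpha and gamma genes and of these beta genes are therefore those of the deposited symbol, with an uncertain split of reads.

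Library depth was 14.4 to 23.4 M reads for CA1, 15.7 to 21.8 M for CA3 and 14.9 to 21.8 M for the DG. Each set of subregion markers was highest in the subregion of its label, though not absent from the others. The summed normalized count of 5 CA1 markers had medians of 47509 (young) and 40016 (middle-aged) in CA1. The DG gave 6854 and 5307 for these genes, and CA3 gave 11290 and 10409. That of 5 DG markers was 14557 and 13957 in the DG, against 3042 and 3825 in CA1 and 3085 and 2820 in CA3. The 4 CA3 markers in the tables summed to 14309 and 14192 in CA3, to 7905 and 7726 in the DG and to 2831 and 2853 in CA1. In bulk tissue, fewer cells of a type and less RNA per cell cannot be told apart. The animal numbers form 2 runs, one with 6 young and 10 middle-aged rats and one with 6 of each; the labels do not say what separates them.

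Across subregions, Pcdh8 and Pcdh19 were highest and Pcdh10 lowest in the DG in all 28 rats. Pcdh18 and Pcdh9 were highest in CA3 and Pcdh20 lowest in CA1, also in all rats. CA1 had no non-clustered member that was above both other subregions in all rats. A gene was said to stand apart when all 28 rats had the same direction and the median within-rat difference was at least 2-fold. By this rule Pcdh10 and Pcdh9 stood apart in no pair, Pcdh18 only against the DG, and Pcdh20 only between CA3 and CA1. The 3 tables were normalized separately, so these differences are described and not tested. In all, 3 members stood higher in the DG than in CA1 (3 of 41, against 2.17% of 14291 genes), and 0 of 41 the other way (2.22% of genes). Against CA3, 3 members stood higher in the DG (1.93% of genes) and 1 lower (3.72% of genes). Between CA3 and CA1, 1 member stood higher in CA3 (1.74% of genes) and 0 in CA1 (0.952% of genes). The median of all genes lay at -0.086 (log2) for the DG against CA3 and at 0.077 for CA3 against CA1, and within 0.01 of 0 after joint scaling by TMM.

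Pcdh8, also called arcadlin, is induced by neuronal activity and draws N-cadherin away from synapses. Its normalized count ran from 915 to 2364 (median 1482) in CA1, 938 to 2024 (median 1461) in CA3 and 2012 to 4854 (median 3411) in the DG. The DG value was the higher one in all 28 rats against either field, by 2.3-fold over CA1 (median log2 difference 1.21 ± 0.38, SD over 28 rats) and 2.4-fold over CA3 (1.27 ± 0.23). CA1 and CA3 did not separate, with 17 rats higher in CA1 and 11 in CA3. Pcdh19, an X-linked delta2 gene whose loss causes epilepsy mainly in females, gave 461 to 1215 (median 786) in CA1, 654 to 1050 (median 907) in CA3 and 1358 to 2512 (median 1881) in the DG. No DG library overlapped a library of the other subregions. The within-rat difference was 2.4-fold over CA1 and 2.2-fold over CA3.

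Pcdh10, a delta2 member that binds the actin-regulating WAVE complex, went the other way. It gave 1078 to 2614 (median 1680) in CA1, 1367 to 1936 (median 1677) in CA3 and 650.5 to 1793 (median 956) in the DG. It was lower in the DG than in CA1 and than in CA3 in all 28 rats, with median log2 differences of -0.74 and -0.72, under 2-fold. Pcdh17, a delta2 gene found at synapses, was only modestly higher in the DG, its median being 1140 there, 956 in CA1 and 866 in CA3. It exceeded CA1 in 26 rats and CA3 in 27.

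Pcdh20, which belongs to neither delta group, was lowest in CA1. Its values were 586 to 1391 (median 821) in CA1, 1317 to 2461 (median 2012) in CA3 and 1163 to 1977 (median 1588) in the DG. CA3 exceeded CA1 2.4-fold and the DG exceeded CA1 1.9-fold, each in 28 of 28 rats, and CA3 exceeded the DG 1.3-fold, also in all 28. Pcdh18, a delta2 gene at low counts, gave 39.9 to 113 (median 80.9) in CA1, 115 to 177 (median 146) in CA3 and 42.8 to 90.4 (median 71.0) in the DG. The CA3 libraries lay above every DG library, 2.0-fold in the median rat, or -0.95 (log2, DG against CA3) after joint TMM scaling, which is under 2-fold. The DG and CA1 did not separate for this gene (higher in the DG in 11 rats, in CA1 in 17). Pcdh9, a delta1 gene, gave 591 to 1203 (median 974), 1220 to 1887 (median 1519) and 736 to 1292 (median 1071) in the same order and was highest in CA3 in all 28 rats against both other subregions.

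Oligodendrocyte markers, like Pcdh18 and Pcdh9, were highest in CA3. The markers were far lower in the DG than in CA1. For the same pair, Pcdh18 was higher in the DG in 11 of 28 rats and Pcdh9 in 18. The summed normalized count of 7 such markers had medians of 283807 (young) and 276129 (middle-aged) in CA3, 196715 and 165379 in CA1, whereas the DG had 75761 and 69744. None of the 7 markers was at 0 in every library of a subregion. Neuronal markers also peaked in CA3, with summed medians of 200154 (young) and 198106 (middle-aged). CA1 gave 149258 and 144062 for them, the DG 163707 and 164466. Sums for oligodendrocyte precursors and for choroid plexus and ependyma were highest in CA3 at both ages too. Those for microglia, interneurons, and endothelial and mural cells were highest in CA1. The astrocyte sum peaked in CA1 in young and in CA3 in middle-aged rats. The part of any of these cell types in the levels of Pcdh18 and Pcdh9 was not tested.

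The other non-clustered genes differed less between subregions. Pcdh1, a delta1 gene, had medians of 7729, 9522 and 10052 in CA1, CA3 and the DG, with CA1 the lowest in 23 rats against CA3 and 25 against the DG. Pcdh7, a delta1 gene whose tail binds protein phosphatase 1, had 603, 606 and 589.9, and no pair of subregions separated the rats by more than 18 to 10. Pcdh15, known as a component of the hair-cell tip link, had 158, 178 and 159. Pcdh12, a protocadherin of blood-vessel lining, had the lowest counts of the non-clustered genes, with medians of 26.9, 27.3 and 28.6.

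**Figure D1:**
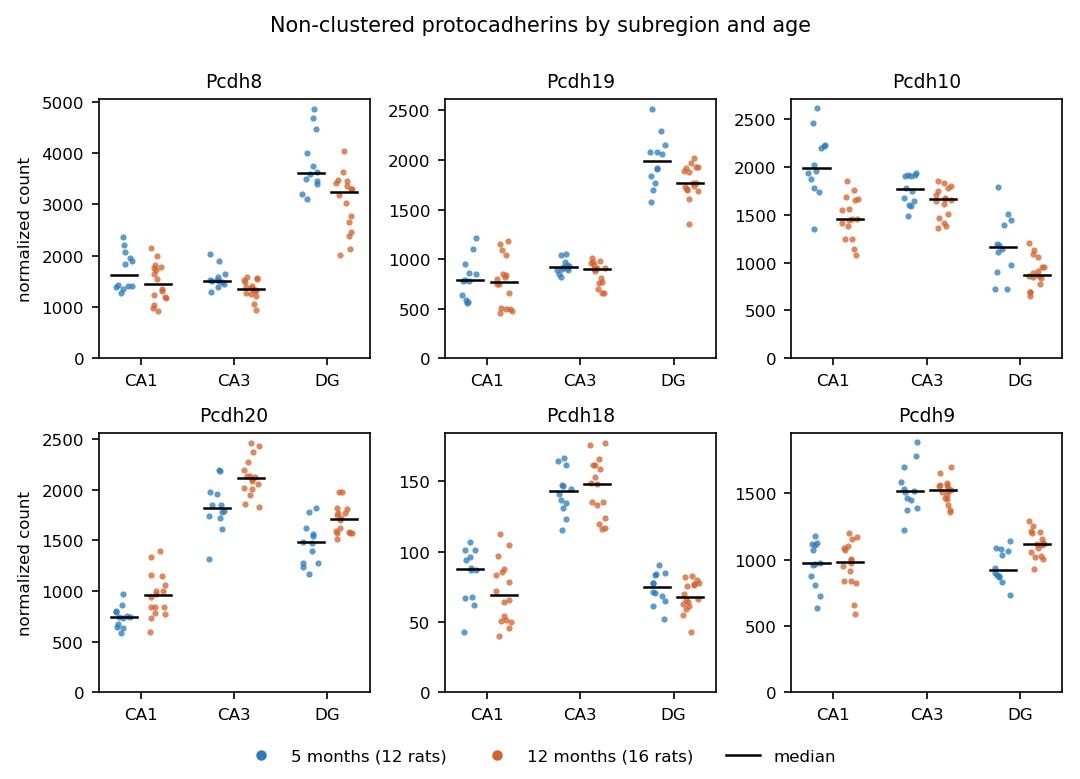
Normalized counts of 6 non-clustered protocadherins in each library, by subregion and age (5 months in blue, 12 rats; 12 months in orange, 16 rats; line at the median; each panel starts at 0). Pcdh8 and Pcdh19 are high in the DG, Pcdh10 is low there, and Pcdh20 is low in CA1; Pcdh18 and Pcdh9 are highest in CA3.

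Among the clustered genes, the beta family held the widest range of median differences between the DG and either CA field. Pcdhb21 gave 13.2 to 55.9 (median 29.2) in CA1, 12.3 to 41.7 (median 28.5) in CA3 and 31.3 to 97.4 (median 68.9) in the DG. It was higher in the DG in all 28 rats, 2.3-fold over CA1 and 2.5-fold over CA3, although the ranges over rats overlapped. Pcdhb19 gave 116 to 254 (median 168), 128 to 204 (median 156) and 234 to 333 (median 279) and was also higher in the DG in all 28 rats, 1.6-fold and 1.7-fold. Pcdhb22 was higher in the DG in 26 rats against CA1 (1.7-fold) and in 27 against CA3 (2.1-fold). In the other direction, Pcdhb4 gave 107 to 203 (median 171) in CA1, 80.4 to 172 (median 134) in CA3 and 63.2 to 161 (median 104) in the DG. CA1 exceeded the DG in all 28 rats for Pcdhb4 (1.6-fold) and for its neighbour Pcdhb3 (1.5-fold).

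In their order along the chromosome (RefSeq), the 16 beta genes had 3 that were lower in the DG than in CA1 at one end and 4 that were higher in the DG at the other. The first 3 (Pcdhb2, Pcdhb3 and Pcdhb4) had median log2 differences of -0.36, -0.58 and -0.71 for the DG against CA1. The last 4 (Pcdhb19, Pcdhb20, Pcdhb21 and Pcdhb22) had 0.70, 0.27, 1.2 and 0.78. Against CA3 the last 4 had 0.78, 0.49, 1.32 and 1.06. The first 3 had -0.19, -0.22 and -0.32 against CA3, with 8, 9 and 5 of 28 rats higher in the DG, similar to -0.21 for Pcdhb8 in the middle of the cluster, so the low end was seen against CA1 and was weak against CA3. Of the last 4, the 3 with a promoter entry are the genes with CACATGG before the element in the sequences printed above. The 9 genes between the ends had differences from -0.28 to 0.48 against CA1. Pcdhb20 lay within that range, and the other genes of both ends lay outside it, Pcdhb2 only narrowly. Pcdhb7 (0.48) and Pcdhb6 (0.39) lay above Pcdhb20, and Pcdhb11 (-0.28) lay near Pcdhb2. Pcdhb2 is also an older name of Pcdhb12, and Pcdhb14 of Pcdhb20. The place in this order of the reads of Pcdhb2, Pcdhb12, Pcdhb14 and Pcdhb20 is therefore uncertain. This arrangement was seen after the values and was given no test.

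**Figure D2:**
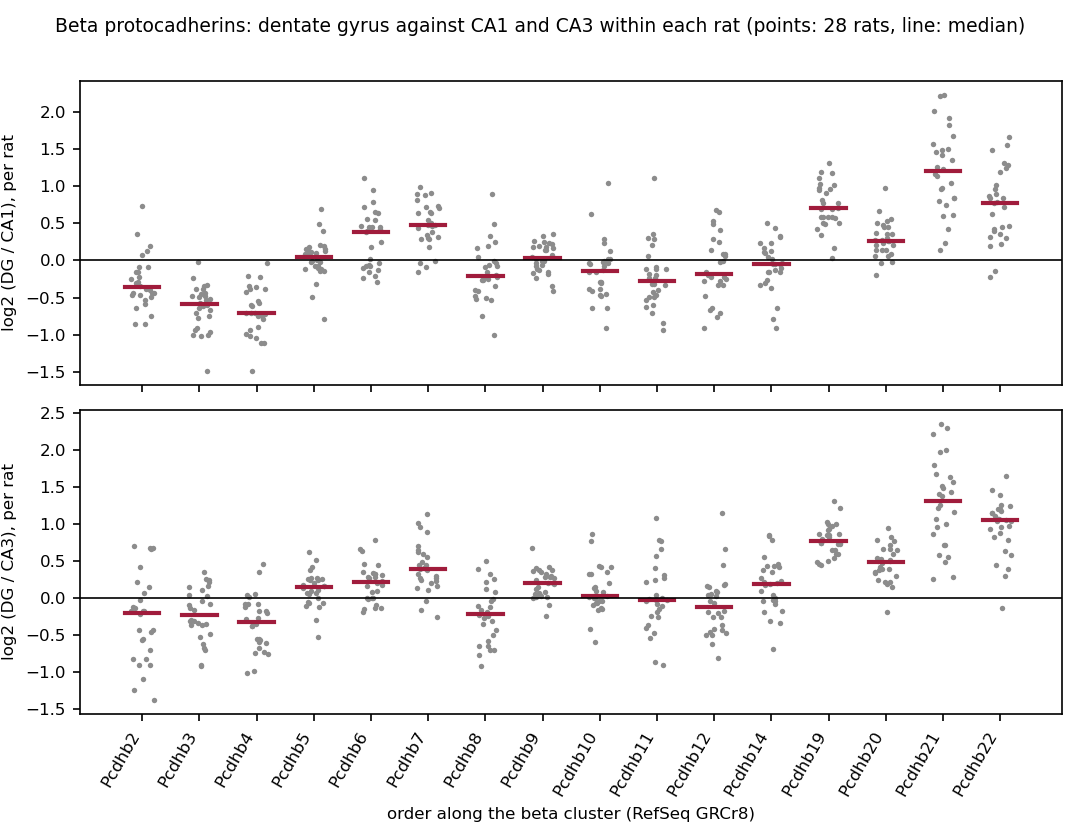
Within-rat log2 difference between the DG and CA1 (top) or CA3 (bottom) for the 16 beta protocadherins in their order along the cluster; points are 28 rats, red lines are medians, and 0 means equal levels. Pcdhb19 to Pcdhb22 lie mostly above 0 in both panels, and Pcdhb3 and Pcdhb4 lie below 0 in all rats in the top panel.

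The gamma genes were mostly higher in the DG, and their median differences from CA1 and CA3 were above those of the beta genes. The median over the 12 gamma genes of the median within-rat log2 difference was 0.36 for the DG against CA1, 0.33 for the DG against CA3 and 0.11 for CA3 against CA1; over the 16 beta genes the corresponding medians were -0.0044, 0.18 and -0.15, and over all 14291 genes 0.0033, -0.086 and 0.077. Pcdhgb6 was higher in the DG than in CA1 in all 28 rats (1.6-fold). Pcdhga3, Pcdhgb7 and Pcdhgb8 were higher in the DG than in CA3 in all 28 rats, by 1.6-fold, 1.4-fold and 1.4-fold. Pcdhga6 leaned away from the DG, being higher in CA1 in 23 rats and in CA3 in 24, and Pcdhga4 was higher in CA3 than in the DG in 24. The alpha symbol Pcdha4 was higher in the DG in 27 rats against CA1 (1.4-fold) and 25 against CA3. Pcdha6 had medians of 2382, 2733 and 2638 in CA1, CA3 and the DG.

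Between 5 and 12 months, the protocadherins changed in both directions, by less than 1.5-fold, and the share of members called was below that of all genes in each comparison. Tests were made per subregion with limma on log2(normalized count + 1), with p-values adjusted over all genes tested and a threshold of 0.05. In CA1, 7 of 41 members passed, against 25.2% of 14685 genes: 1 was higher at 12 months (12.4% of genes) and 6 lower (12.8%). In CA3, 6 passed (21.7% of 14893 genes), 3 higher (10.9%) and 3 lower (10.8%). The DG had 10 (37.1% of 14526 genes), 5 higher (18.5%) and 5 lower (18.5%). In the average over a rat's 3 subregions, 14 passed (50% of 14291 genes), 5 higher (25.4%) and 9 lower (24.6%). In all, 16 members passed in at least 1 subregion: 10 in 1, 5 in 2 and Pcdh20 in all 3, none in opposite directions. The subregions share their rats, so these are not independent counts.

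**Figure D3:**
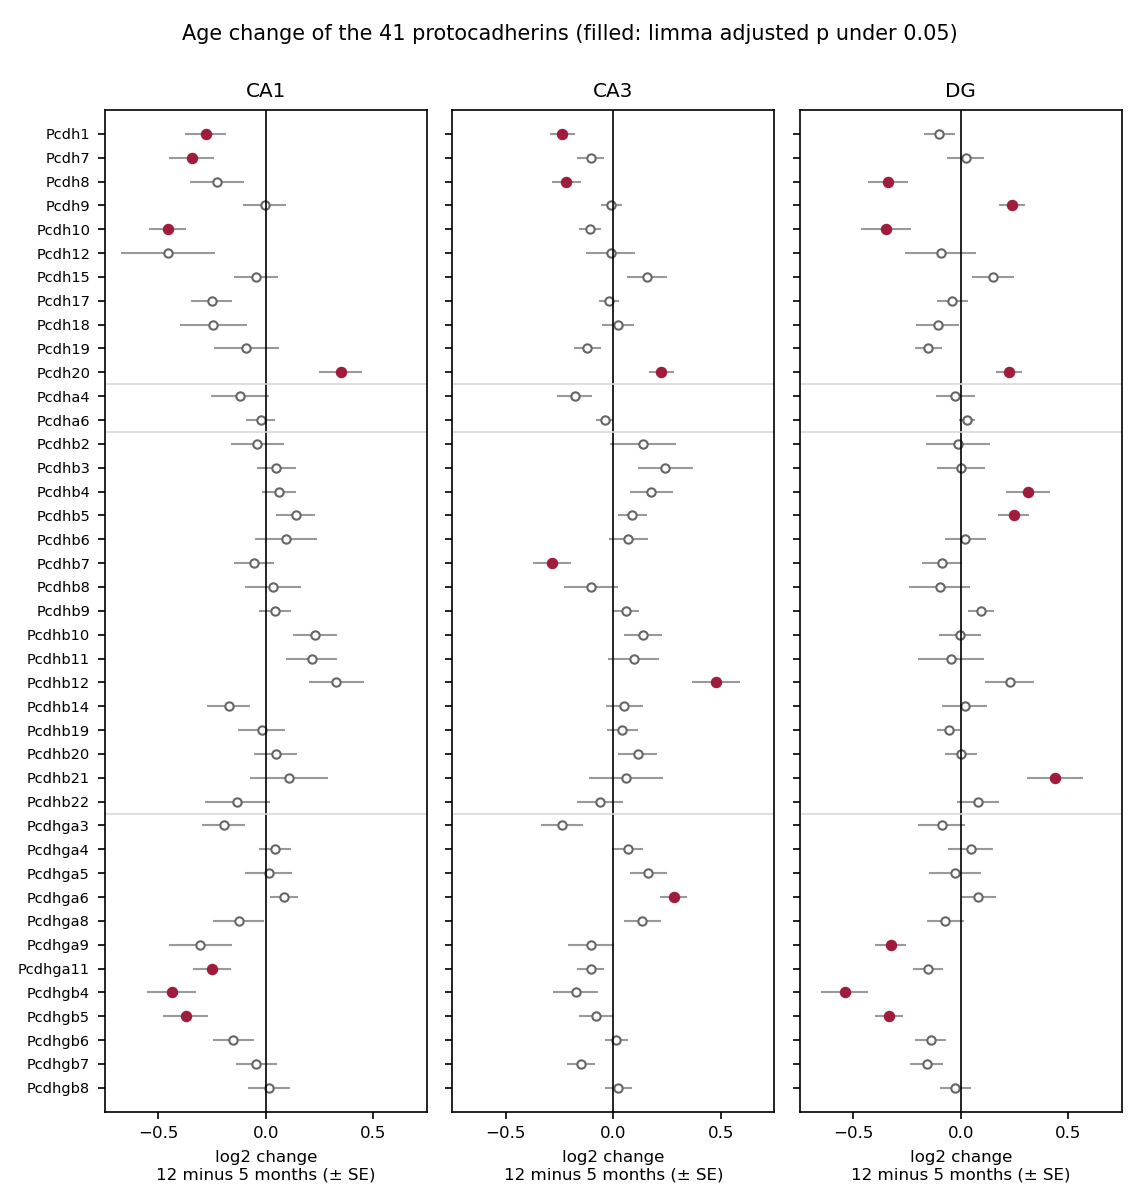
Change with age of the 41 protocadherins in each subregion, as log2 of the 12-month over the 5-month level with its standard error; filled red points passed the adjusted p threshold of 0.05. Called changes lie between -0.54 (Pcdhgb4, DG) and 0.48 (Pcdhb12, CA3), and Pcdh20 is filled in all 3 panels.

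Of the non-clustered genes, Pcdh10, Pcdh8, Pcdh1 and Pcdh7 fell with age in at least 1 subregion, and Pcdh20 and Pcdh9 rose. Pcdh10 in CA1 ran from 1350 to 2614 (median 1990) in the young rats and from 1078 to 1850 (median 1461) in the middle-aged. All 16 middle-aged values lay below the young median, and the ranges overlapped. The change was -0.46 ± 0.086 (log2 ± SE), with a limma adjusted p of 0.00090. In the DG the values were 721 to 1793 (median 1166) and 650.5 to 1201 (median 875), a change of -0.35 ± 0.12 with a limma adjusted p of 0.019. Most of the DG fall lay in the second run of animal numbers (-0.67, against -0.06 in the first). In CA3 its change was -0.11 ± 0.052, with a limma adjusted p of 0.14.

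Pcdh8 fell in the subregion where it was highest. DG values were 3112 to 4854 (median 3607) in young and 2012 to 4034 (median 3238) in middle-aged rats, of which 14 of 16 lay below the young median. Its change was -0.34 ± 0.092 in the DG (limma adjusted p = 0.0058) and -0.22 ± 0.070 in CA3 (limma adjusted p = 0.024). Here too the runs differed in size, with -0.11 in the first and -0.66 in the second in the DG, and -0.05 and -0.44 in CA3. The CA3 call was lost without the young rat of replicate 7 or of replicate 12. In CA1 the change was -0.23 ± 0.13, with a limma adjusted p of 0.18.

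Both falling delta1 genes changed in CA1. Pcdh1 gave 6806 to 12235 (median 8161) and 4952 to 9218 (median 7301) there, a change of -0.28 ± 0.096 (limma adjusted p = 0.033) that was lost in 8 of 28 fits leaving out 1 rat (young replicate 1, 2 or 8, or middle-aged replicate 9, 12, 14, 15 or 16). In CA3 it gave 8782 to 12250 (median 10557) in young and 7314 to 10522 (median 8834) in middle-aged rats, all 16 of them below the young median, a change of -0.24 ± 0.057 (limma adjusted p = 0.0041). In the DG, where its change was -0.10 ± 0.074 (limma adjusted p = 0.29), 8 middle-aged rats lay on either side of the young median. Pcdh7 in CA1 gave 412 to 944 (median 667) and 359 to 696 (median 500.0), a change of -0.34 ± 0.10 (limma adjusted p = 0.017). Its changes in CA3 and the DG were -0.11 ± 0.063 and 0.02 ± 0.086, with limma adjusted p values of 0.23 and 0.86.

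Pcdh20 rose in all 3 subregions. In CA1 it gave 586 to 966 (median 744) in young and 594 to 1391 (median 956) in middle-aged rats, a change of 0.35 ± 0.10 (limma adjusted p = 0.013). In CA3 it gave 1317 to 2196 (median 1818) and 1832 to 2461 (median 2116), a change of 0.22 ± 0.058 (limma adjusted p = 0.0075). In the DG it gave 1163 to 1823 (median 1479) and 1515 to 1977 (median 1708), a change of 0.23 ± 0.061 (limma adjusted p = 0.0056). In CA3 and the DG all 16 middle-aged rats lay above the young median, and in CA1 14 did. Pcdh9 rose in the DG, where it gave 736 to 1140 (median 919) in young and 929.8 to 1292 (median 1119) in middle-aged rats, all 16 of them above the young median. That change was 0.24 ± 0.061 (limma adjusted p = 0.0036), while in CA1 and CA3 the estimates were -0.01 and -0.01.

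The remaining 5 non-clustered genes did not pass in any subregion or on the average. The smallest adjusted p values among them were 0.052 for Pcdh19 in the DG (-0.15 ± 0.062) and 0.054 for Pcdh17 in CA1 (-0.25 ± 0.097), both from limma. On recovered reads Pcdh19 passed in the DG by edgeR (adjusted p = 0.042) and DESeq2 (0.039), and Pcdh17 passed in CA1 by DESeq2 (0.036) but not by edgeR (0.051). Pcdh12 in CA1 had an estimate of -0.46 ± 0.22 at counts down to 8.4, with a limma adjusted p of 0.12. For Pcdh15 the estimates ran from -0.05 in CA1 to 0.16 in CA3, and for Pcdh18 from -0.25 in CA1 to 0.02 in CA3.

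Of 12 gamma genes, 3 fell in CA1 (12.8% of all genes fell there) and 3 in the DG (18.5%). None fell in CA3 (10.8%), where 1 rose (10.9%), and on the average 4 fell (24.6%) and 1 rose (25.4%). With so few genes these counts are given as a description. The median change over the 12 was -0.12 for the DG, -0.14 for CA1 and -0.034 for CA3 (log2), beside 0.0100, 0.0038 and 0.0022 over all genes tested. Pcdhgb4 in the DG ran from 139.8 to 289 (median 179) in young and from 94.7 to 173 (median 132) in middle-aged rats, all 16 of them below the young median. The change was -0.54 ± 0.11 (limma adjusted p = 0.00065). In CA1 it gave 109 to 191 (median 146) and 62.3 to 149 (median 112), a change of -0.44 ± 0.12 (limma adjusted p = 0.0077). In CA3 the estimate was -0.17 ± 0.10, with a limma adjusted p of 0.23.

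Pcdhgb5 showed nearly the same picture. DG values were 292 to 467 (median 356) in young and 239.8 to 333 (median 277) in middle-aged rats, again all 16 below the young median, a change of -0.33 ± 0.067 (limma adjusted p = 0.00064). In CA1 its change was -0.37 ± 0.10 (limma adjusted p = 0.011). Pcdhga9 fell in the DG, where it gave 121 to 179 (median 154) in young and 104 to 162 (median 122) in middle-aged rats, a change of -0.33 ± 0.072 (limma adjusted p = 0.0012), and 15 of 16 middle-aged rats lay below the young median. In CA1 all 16 middle-aged values of Pcdhga9 were below the young median, but 1 young library was at 33.1, and the estimate of -0.30 ± 0.15 did not pass (limma adjusted p = 0.12). On recovered reads it did, with adjusted p values of 0.034 by edgeR and 0.018 by DESeq2. Pcdhga11 fell in CA1, with a change of -0.25 ± 0.089 (limma adjusted p = 0.037). That call was lost in 11 of 28 fits leaving out 1 rat (young replicate 1, 7, 8, 9 or 12, or middle-aged replicate 3, 8, 9, 12, 15 or 16). Most of its fall lay in the second run of animal numbers (-0.43, against -0.09 in the first).

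Pcdhga6 was the gamma gene that rose, and only its CA3 change passed in a subregion. CA3 values were 260.1 to 388 (median 309) in young and 338 to 458 (median 381) in middle-aged rats, all 16 above the young median. The change was 0.28 ± 0.064 (limma adjusted p = 0.0028), against 0.08 ± 0.065 in CA1 and 0.08 ± 0.083 in the DG. Summed over the 12 gamma genes, the DG held 186 ± 13.1 RPM (recovered reads scaled to 1 M per library) in young rats (SD, n = 12) and 176 ± 10.5 in middle-aged rats (n = 16). In CA3 the sums were 141 ± 7.11 and 144 ± 8.42. These sums were not tested, and the groups differed by less than 1 SD of the young rats in both subregions.

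Of 16 beta genes, none passed in CA1, 1 rose and 1 fell in CA3 (10.9% of all genes rose and 10.8% fell there), and 3 rose in the DG, where 18.5% of all genes rose, a share close to that of the beta genes. On the average, 3 rose and 1 fell, against 25.4% and 24.6% of all genes. In CA1, 2 beta genes had an unadjusted limma p under 0.05, and edgeR and DESeq2 on recovered reads each called Pcdhb12 there (adjusted p = 0.043 and 0.032). The median change over the 16 was 0.0089 for the DG, 0.048 for CA1 and 0.080 for CA3. Pcdhb12 in CA3 ran from 29.7 to 68.8 (median 48.9) in young and from 49.1 to 92.7 (median 65.0) in middle-aged rats, all 16 above the young median. Its change was 0.48 ± 0.11 (limma adjusted p = 0.0037), and the estimates in CA1 and the DG were 0.33 ± 0.13 and 0.23 ± 0.11. Pcdhb12 was also the one gene called in a subregion within the first run of animal numbers (0.58 there and 0.32 in the second).

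The 3 beta genes that rose in the DG were Pcdhb21, Pcdhb4 and Pcdhb5. Pcdhb21, already highest in the DG, gave 31.3 to 87.8 (median 57.4) in young and 55.1 to 97.4 (median 74.6) in middle-aged rats, a change of 0.44 ± 0.13 (limma adjusted p = 0.010). Pcdhb4 gave 63.2 to 132 (median 91.8) and 92.3 to 161 (median 109.6), with all 16 middle-aged rats above the young median and a change of 0.31 ± 0.10 (limma adjusted p = 0.018). Pcdhb5 gave 241 to 403 (median 322) and 319.9 to 433 (median 368), a change of 0.25 ± 0.072 (limma adjusted p = 0.0092). For Pcdhb4 and Pcdhb5 the first run of animal numbers carried most of the rise (0.46 and 0.43, against 0.16 and 0.05 in the second).

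Pcdhb7 was the beta gene that fell. CA3 values were 89.0 to 132 (median 106) in young and 64.1 to 114 (median 90.5) in middle-aged rats, 14 of 16 below the young median, a change of -0.28 ± 0.090 (limma adjusted p = 0.023). Neither alpha symbol passed in any subregion; the estimates ran from -0.18 (Pcdha4, CA3) to 0.03 (Pcdha6, DG), and 1 of the 2 had an unadjusted limma p under 0.05, in CA3 only; edgeR and DESeq2 on recovered reads called neither.

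**Figure D4:**
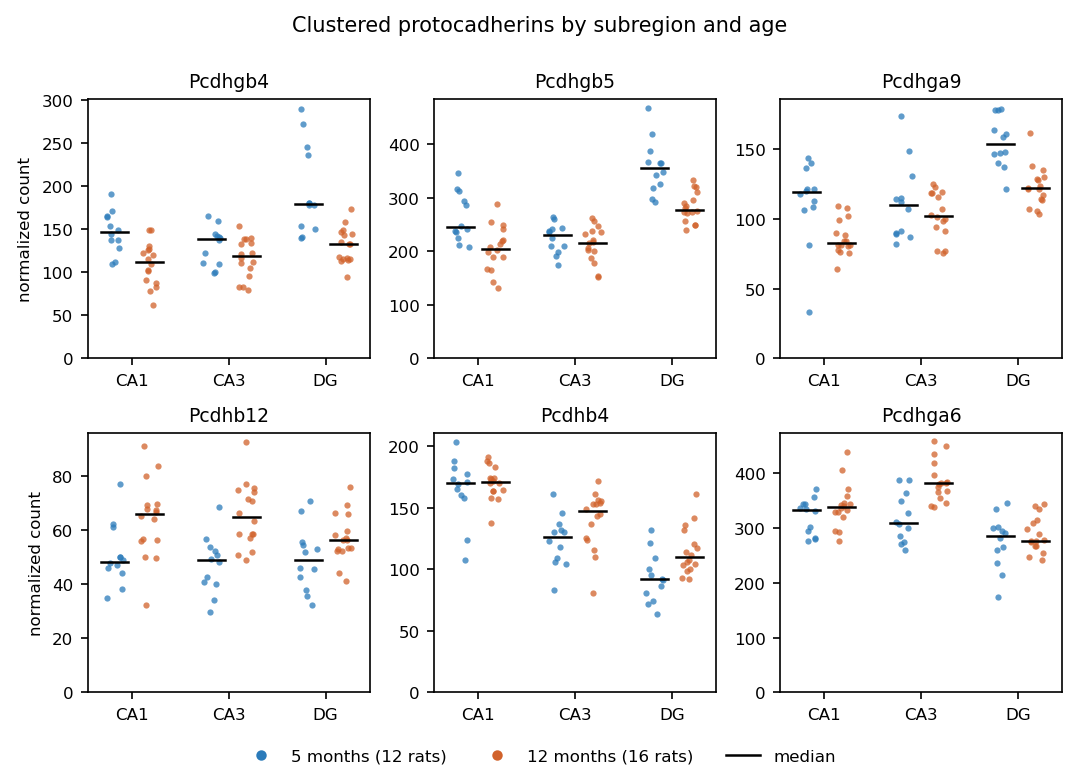
Normalized counts of 6 clustered protocadherins in each library, by subregion and age (5 months in blue, 12 rats; 12 months in orange, 16 rats; line at the median; each panel starts at 0). In the DG the middle-aged medians of Pcdhgb4, Pcdhgb5 and Pcdhga9 lie below the young ones, in CA3 those of Pcdhb12 and Pcdhga6 lie above, and the ranges overlap throughout.

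Whether the age change differed between subregions was tested on the difference within each rat. No protocadherin passed: 0 of 41 for the DG against CA1 (0.607% of 14340 genes), 0 for the DG against CA3 (2.73% of 14378 genes) and 0 for CA1 against CA3 (0% of 14513 genes), all by limma. At an unadjusted p under 0.05 there were 2, 4 and 7 members. The smallest adjusted p values were 0.059 for Pcdhgb4 and 0.073 for Pcdh9, both for the DG against CA3 (limma; differences of -0.37 ± 0.11 and 0.25 ± 0.078 in log2 change). With the run of animal numbers as a covariate, Pcdh9 passed (limma adjusted p = 0.047). A change called in 1 subregion only is thus not shown to be limited to it.

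The 2 runs of animal numbers gave very different numbers of calls. Within the first run, the members passing numbered 0 for CA1, 1 for CA3 and 0 for the DG by limma, and within the second 11, 6 and 11. The share of all genes called moved likewise, from 3.19%, 4.83% and 0.172% in the first run to 33.8%, 16.5% and 46.9% in the second. All 23 calls made in the subregions had the same sign within both runs. They were called on the 2 runs together, which favours a shared sign, so this is no independent repeat. Of them, 1 passed in the first run alone, 17 in the second alone and none in both. On the average over subregions, 4 members rose and 3 fell within the first run, where 18.4% of 14291 genes were called. Within the second, 3 rose and 14 fell, where 58.1% of genes were called. Of the 14 members called on the average, 5 passed in both runs: Pcdh1, Pcdh20, Pcdhb12, Pcdhgb4 and Pcdhgb5. The share of all genes passing in both was not counted, so these 5 are a description. Their log2 changes on the average included 0.18 and 0.35 for Pcdh20 and -0.39 and -0.35 for Pcdhgb4 in the first and second run.

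Markers of cell types moved with age beside these changes. Of 6 markers of oligodendrocyte precursors, 4 fell in CA1, 4 in the DG and 2 in CA3 by limma, where 12.8%, 18.5% and 10.8% of all genes fell; their summed median went from 8886 to 7326 in CA1 and from 5310 to 4362 in the DG. The ranges of that sum were 3976 to 6113 and 3535 to 5777 in the DG. Of 5 CA1 markers, 2 fell in CA1 and 1 fell in the DG. In CA1, where Pcdh10, Pcdh7 and Pcdh1 fell, 2 of 8 astrocyte, 2 of 8 interneuron and 1 of 7 oligodendrocyte markers also fell. Of 6 endothelial and mural markers tested, 3 fell in the DG, where Pcdhgb4, Pcdhgb5 and Pcdhga9 fell. None passed in CA1, where Pcdhgb4 and Pcdhgb5 also fell, or in CA3. In the DG the change was -0.43 ± 0.10 for Cldn5. Rgs5 and Slco1a4 had positive estimates there (0.29 ± 0.12 and 0.094 ± 0.080) that did not pass. The summed median of the 6 markers in the DG was 4213 in young rats (range 3290 to 4792) and 3692 in middle-aged rats (2820 to 4487). Of 7 microglial markers, 5 rose in CA3, 3 in CA1 and 1 in the DG, where 10.9%, 12.4% and 18.5% of all genes rose. Their sum ran from 5217 to 6616 in young and from 5752 to 32712 (median 6446) in middle-aged CA1 libraries. Among 8 neuronal markers, 1 rose and 2 fell in CA1, 1 rose and 3 fell in CA3, and 3 rose and 3 fell in the DG. On the average over subregions, Rbfox3 changed by -0.37 ± 0.055 and Map2 by 0.19 ± 0.042. No marker of these lists was at 0 in every library of a subregion, and their part in the protocadherin changes was not tested.

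Genes that act on the clusters and on protocadherin proteins were described from lists. Of 11 genes of CTCF, cohesin and its loading and release factors, 9 rose in the DG (18.5% of all genes rose there), 8 in CA3 (10.9%), 6 in CA1 (12.4%) and 10 on the average (25.4%), and none fell. The median change was 0.36, 0.14, 0.21 and 0.20 (log2) in that order, beside 0.0100, 0.0022, 0.0038 and 0.0050 over all genes. On the average, Stag1, a cohesin subunit, rose by 0.37 ± 0.050, Wapl, which releases cohesin from DNA, by 0.40 ± 0.059, and Nipbl, which loads it, by 0.27 ± 0.046 (log2 ± SE). Ctcf itself changed by 0.18 ± 0.055 (DG), 0.21 ± 0.052 (CA1) and 0.14 ± 0.047 (CA3), with limma adjusted p values of 0.011, 0.0056 and 0.026. Mau2, the partner of Nipbl, did not pass in any subregion.

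A further list held 8 genes of DNA methylation or repressive chromatin. Of these, 0 rose and 2 fell in CA1, 1 rose and 3 fell in CA3, and 2 rose and 2 fell in the DG. Of all genes, 25.2%, 21.7% and 37.1% changed in CA1, CA3 and the DG. Smchd1, a repressor of clustered protocadherins, rose in the DG by 0.37 ± 0.076 (limma adjusted p = 0.00076), and Wiz, a zinc-finger protein that binds their promoters, fell there, with a change of -0.33 ± 0.065 (limma adjusted p = 0.00060). Of 6 tested genes for the proteases that shed protocadherins, 1 rose in CA3, 1 rose and 1 fell in the DG, and none passed in CA1, where 0 had an unadjusted limma p under 0.05. The rising gene was Adam10, the metalloprotease, at 0.42 ± 0.069 in the DG and 0.19 ± 0.058 in CA3, and the falling one Aph1a, a gamma-secretase subunit, at -0.30 ± 0.075. Of 17 partners of protocadherin tails, 4 rose and 1 fell in CA1, 4 rose and 3 fell in CA3, and 5 rose and 4 fell in the DG. Set against the shares of all genes just given, the counts of the chromatin, shedding and partner lists are not read as results about those lists. Taok2, the kinase through which Pcdh8 acts, changed by -0.23 ± 0.066, -0.17 ± 0.036 and -0.19 ± 0.056 in CA1, CA3 and the DG, with limma adjusted p values of 0.014, 0.0019 and 0.0093. Nckap1, the WAVE subunit that Pcdh10 binds, rose in all 3, by 0.23 ± 0.076, 0.15 ± 0.046 and 0.27 ± 0.072.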

How the data were processed

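Per the submitters' processing notes, STAR 2.5.3a, Partek, DESeq2 3.5 and rat build rn6 were used; their order, the gene annotation, the strand setting and the handling of shared exons were not stated in the labels or headers. The authors deposited 1 table of normalized counts (a signal) per subregion. In every library they are whole multiples of 1 step (100% of values up to 1000 reads within 0.1 of a whole read), so whole reads were recovered and served as depth. One CA3 column is headed by an animal number alone and was taken as that animal's CA3 library. No pair of libraries agreed within sampling noise.

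Genes that reached 10 in 12 or more of a subregion's 28 libraries were tested with limma 3.58.1 (R 4.3.3; empirical Bayes with a trend, 2-sided) on log2(value + 1), with the Benjamini-Hochberg adjustment across every gene in the fit and a threshold of 0.05. Fold changes are on that scale and understate changes of low genes. The replicate is the rat. A rat's 3 libraries come from the same animal, by the number in their titles; their correlation in a joint fit was 0.0949. The limma fit of the age change and the rule for genes that stand apart were tested on simulated data. The other steps had no such test. The members and the lists were chosen with earlier results of these data known. Alternatives were pseudocounts of 0.5 and 5, other filters, TMM and median-of-ratios scaling, count models fitted to the recovered reads (edgeR 4.0.16, DESeq2 1.42.0), the run of animal numbers as a covariate or each run alone, a minimum fold of 1.2, array weights and leaving out each rat. The genes named are the called members, those that stand apart between subregions, all non-clustered members, and up to 3 called members of each list; further genes were named after their values were seen. Promoters are from RefSeq, build GRCr8; no sequence or coordinate of rn6 was used.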

Additional observations from a re-analysis of the deposited data

How the results depend on the processing

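Pseudocounts of 0.5 and 5, no filter, a minimum value of 50, TMM and median-of-ratios scaling, edgeR and DESeq2 kept every count of changed protocadherins within 1.5 times, and kept all 23 calls of single genes. Within the first run of animal numbers the counts were 0 for CA1, 1 for CA3, 0 for the DG and 7 on the average. The shares of all genes called there were 3.19%, 4.83%, 0.172% and 18.4%. Within the second, CA1 had 11 (33.8% of all genes). A tested minimum fold of 1.2 left 0 members in CA1, 0 for CA3 and 0 for the DG. Array weights gave 11 in CA1. Leaving out 1 rat gave 5 to 11 in CA1 (11 without young replicate 6), 5 to 8 in CA3 and 10 to 12 in the DG. With the rat as a replicate block in a joint fit, the average gave 16 in place of 14, and all 14 were called again; without that block, 0 protocadherins differed between any pair of subregions. For the DG against CA3, 1 differed with the run as a covariate and 1 in the second run alone. The cause was not tested for any of these. At 1.5-fold in all rats, 6 members stood higher in the DG than in CA1 and 2 lower, 5 higher in the DG than in CA3 and 2 lower, and 3 higher in CA3 than in CA1; under joint TMM scaling 0 stood higher in CA3 than in the DG. The lowest counts (Pcdh12, Pcdhb21) rest on as few as 7 and 11 reads in a library, which limits what can be seen there.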
